A study of Mus musculus with 6 samples.

Results

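Genes of sterol and fatty acid metabolism were followed in mouse CD8+ T cells, the cytotoxic lymphocytes, after culture in the presence or absence of neutrophil extracellular traps (NETs), which are webs of DNA, histones and granule proteins shed by activated neutrophils. The list held 40 genes, chosen by symbol for their known roles, with earlier results of these data already known. All 40 had values in the deposited tables, in which 15605 genes had values, and all 40 were among the 12546 genes that passed the filter on low counts. The cells came from spleens of BALB/c mice. The study's methods describe its mice as females obtained at 6 to 8 weeks of age. The 3 NET samples received NETs at 10 μg/mL for 48 h, and the 3 control samples were cultured without NETs. The NETs were washed from neutrophils that had been given the protein kinase C activator phorbol 12-myristate 13-acetate (PMA), and the methods do not say for these samples whether the T cells were stimulated through their receptor. Whether the samples of a group were separate mice or separate cultures is not stated, and the tests therefore reflect sample-to-sample spread that may be only technical.

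T cells that divide or secrete need new membrane, and they build it from cholesterol and fatty acids. Acetyl-CoA enters the mevalonate pathway, whose product squalene is cyclised and trimmed to cholesterol. The same precursor is carboxylated by acetyl-CoA carboxylase and built into palmitate by fatty acid synthase, after which elongases lengthen the chain, desaturases add double bonds and acyl-CoA synthetases activate it for lipid assembly. The SREBP transcription factors switch these genes on when membrane sterol is low. Scap carries SREBP to the Golgi for cleavage, and the Insig proteins hold it back in the endoplasmic reticulum. The oxysterol-activated LXR receptors act on the other side, raising sterol exporters such as Abca1 and Abcg1 and the ubiquitin ligase Mylip.

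Promoter sequences of the members are shown because the SREBP proteins bind DNA together with the factors NF-Y and Sp1. RefSeq promoters (GRCm38.p6, the assembly behind mm10) were matched for 32 of the 40 members, and the 250 bases before each start site were searched on both strands. The motifs were TCACNCCAC, the core of the sterol regulatory element, CCAAT (NF-Y), GGGCGG (Sp1) and CACGTG (E-box). None of these strings can hold another, although TCACNCCAC can share end bases with the others. A gene was counted when any of its promoters held a match. The sterol element core was found in 2 members, Hmgcs1 and Acsl1, or 6.25% of the 32, against 1.17% of the 10095 tested genes with a promoter in the table. Capitals mark the sterol element core, which lies 137 to 129 bases before the start in Hmgcs1 (chr13:119690184-119690252, + strand). In Acsl1 it lies 76 to 68 bases before a start inside the gene's annotated span (chr8:46490860-46490928, + strand) and reads on the opposite strand.
Hmgcs1: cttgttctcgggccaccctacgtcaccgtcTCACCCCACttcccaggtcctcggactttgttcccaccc
Acsl1: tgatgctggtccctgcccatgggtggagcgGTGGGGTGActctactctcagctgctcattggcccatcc
CCAAT was the commoner feature. It was present in 78.1% of the 32 members, in 14 of the 15 sterol synthesis enzymes matched, and in 40.9% of the tested genes. The last 120 bases before the start of Mvd (chr8:122443423-122443542, - strand) and Msmo1 (chr8:64733579-64733698, - strand), both higher with NETs, are shown beside those of Dhcr7 (chr7:143823047-143823166, + strand, the first of its 3 promoters in the table), the sterol enzyme that was lower, with CCAAT or its complement ATTGG and GGGCGG in capitals.
Mvd: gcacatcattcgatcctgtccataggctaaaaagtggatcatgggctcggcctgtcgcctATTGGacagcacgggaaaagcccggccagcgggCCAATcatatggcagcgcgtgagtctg
Msmo1: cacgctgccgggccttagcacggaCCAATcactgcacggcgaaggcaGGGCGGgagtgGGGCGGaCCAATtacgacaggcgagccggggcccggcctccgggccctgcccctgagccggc
Dhcr7: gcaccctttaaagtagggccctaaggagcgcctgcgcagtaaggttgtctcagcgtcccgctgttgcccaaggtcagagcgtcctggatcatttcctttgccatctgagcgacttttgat
This stretch of Dhcr7 held neither motif.
GGGCGG was present in 84.4% of the members against 61.9% of the tested genes, and CACGTG in 21.9% against 9.79%. CCAAT was held by 9 of the 11 matched members that were higher with NETs, by 3 of the 4 that were lower and by 13 of the 17 that did not pass the test. These matches are letters in a window and were not tested as binding sites.

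The members split rather than moving together. At an edgeR adjusted p below 0.05, 15 of the 40 (37.5%) were higher with NETs, against 22.3% of all genes tested, and 5 (12.5%) were lower, against 22.3%. In all, 20 of the 40 members were called, against a share of 44.6% of all genes tested. The median log2 fold change was 0.07 over the members and -0.01 over all genes tested. Past an additional threshold of 0.58 on the log2 scale, 8 members were higher, where 13.4% of all genes tested passed, and 3 were lower, where 11.9% passed. The values of the NET and control samples did not overlap for 23 members (57.5%), against 54.7% of all genes tested. The 20 members that did not pass the test had log2 fold changes between -0.54 and 0.31, with standard errors between 0.09 and 0.21.

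**Figure D1:**
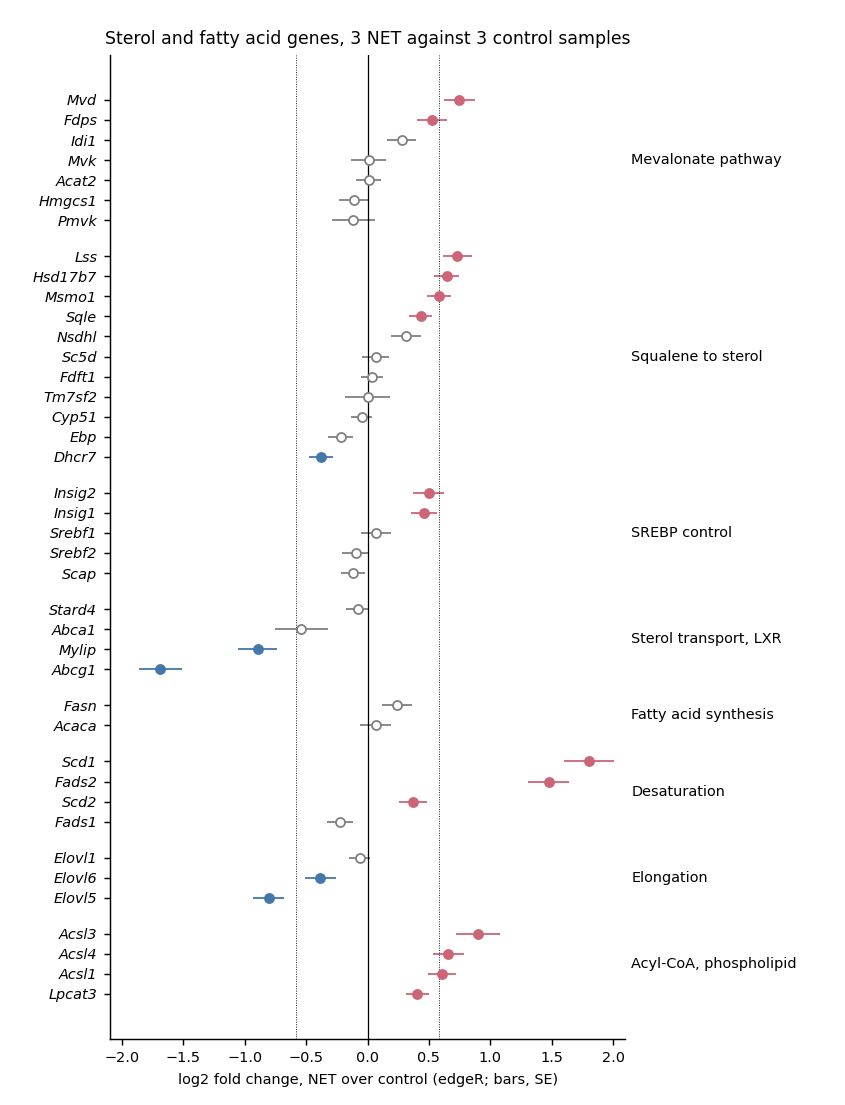
Log2 fold change of the 40 members (x axis, NET over control, edgeR; bars, SE), grouped by role; filled points passed an adjusted p of 0.05 and dotted lines mark 0.58 in either direction. The acyl-CoA and phospholipid group lies wholly to the right with 4 of 4 members called, against 44.6% of all genes tested. Abcg1 at -1.69 and Scd1 at 1.81 are the extremes.

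Other features of the samples moved with the groups. The first principal component of log2 CPM held 81.1% of the variance and separated NET from control samples, and the second held 8.29% and set both samples numbered 1 apart. Markers of several other cell types were higher with NETs, where 22.3% of all genes tested were higher and 22.3% lower. For B cells 11 of 12 tested markers rose, with a summed level of 35.1 to 45.7 CPM in control and 149.8 to 244.0 CPM in NET samples. For macrophages 8 of 10 rose (52.6 to 79.5 against 90.9 to 105 CPM), for neutrophils 5 of 8 rose (23.4 to 28.2 against 42.2 to 54.6 CPM), and for dendritic cells 3 rose and 1 fell of 5 (18.8 to 20.8 against 36.9 to 41.1 CPM). The 3 dendritic cell genes that rose were Batf3 (mean 3.57 to 15.8 CPM), Xcr1 (1.43 to 10.0 CPM) and Zbtb46 (3.22 to 5.65 CPM). Itgax fell (9.92 to 5.14 CPM) and Flt3 did not pass the test. Clec9a, Siglech and Clec10a were at or below 0.368 CPM and were not tested. Of the macrophage list, Lyz2 (35.6 to 39.4 CPM) and Csf1r did not pass, and C1qa, C1qb, C1qc and Mrc1, at or below 0.53 CPM, were not tested. Of 9 CD8+ T cell markers 8 fell, with a summed level of 4150 to 4450 CPM in control and 2832 to 3162 CPM in NET samples. Of 4 CD4+ T cell markers 1 rose and 3 fell (81.4 to 92.3 against 65.9 to 79.8 CPM). On the natural killer cell list 2 genes were tested, of which 0 rose and 1 fell (176.3 to 201.2 against 132.4 to 164.5 CPM over 5 genes with values). This sum came almost wholly from the 2 tested genes, Eomes (mean 107.0 against 92.2 CPM) and Tbx21 (84.6 against 54.8 CPM). Ncr1, Klrb1c and Klre1 were at or below 0.801 CPM in every sample and were not tested, so the sum does not measure these receptors. No gene with values on these lists was at 0 in every library. The neutrophil markers Ly6g and Retnlg, Vsig4 of macrophages, Cd209a of dendritic cells and the natural killer receptors Klra4 and Klra8 were blank in all samples and could not be read. The part of these shifts in the results was not tested, and in bulk RNA fewer cells of a type and less RNA per cell cannot be told apart.

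Desaturation gave the largest rises among the members. Of the 4 desaturase members NETs raised 3 and lowered 0, against 22.3% in each direction over all genes tested. The related gene Scd4, on a companion list and far less abundant, was lower (1.87 ± 0.52 to 0.796 ± 0.125 CPM; log2 fold change -1.22 ± 0.29; edgeR adjusted p = 0.0072). Scd3 and Fads3, at or below 1.52 CPM in every sample, had log2 fold changes of -0.48 ± 0.28 and 0.40 ± 0.37 and did not pass the test. These 3 genes were named after their values were seen. Scd1 encodes stearoyl-CoA desaturase, which turns saturated into monounsaturated fatty acids (NCBI gene 20249; mm10, chromosome 19, 44394450 to 44407709). Scd1 was at 10.2, 20.6 and 14.7 CPM in control samples 1 to 3, and at 49.8, 58.5 and 50.6 CPM in NET samples 1 to 3. Every NET sample was well above the highest control sample. The mean rose from 15.2 ± 5.2 to 53.0 ± 4.8 CPM (SD, n = 3 each). On the log2 scale the fold change was 1.81 ± 0.21, where the error of a fold change is here and throughout its SE (edgeR adjusted p = 7.38e-05). Fads2 encodes the delta-6 desaturase that starts the synthesis of long polyunsaturated fatty acids (NCBI gene 56473; mm10, chromosome 19, 10062765 to 10101503). It stood at 9.78, 11.2 and 8.91 CPM in control and at 31.0, 31.1 and 21.1 CPM in NET samples. NET sample 3 was the lowest of its group and still above all control samples, and the log2 fold change was 1.48 ± 0.17 (edgeR adjusted p = 7.31e-05).

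The related genes beside them on chromosome 19 had smaller fold changes. Scd2, a second stearoyl-CoA desaturase (44293676 to 44306864), had the highest FPKM of the 40 members in both groups. Its level was 646.5, 809.4 and 687.4 CPM in control and 934.2, 996.3 and 838.5 CPM in NET samples. The groups did not overlap, and the log2 fold change was 0.37 ± 0.11 (edgeR adjusted p = 0.0217). Scd2 no longer passed when control sample 1 was left out (0.30, adjusted p = 0.059), nor without control sample 3 (0.35, adjusted p = 0.0769), without NET sample 2 (0.33, adjusted p = 0.079) or without both samples numbered 1 (0.29, adjusted p = 0.0744). Fads1, the delta-5 desaturase that acts later in the polyunsaturated chain (10182877 to 10196874), had a log2 fold change of -0.23 ± 0.10 and did not pass the test (edgeR adjusted p = 0.103), but passed without NET sample 2 (-0.31, adjusted p = 0.0481).

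The balance within each gene pair was read from FPKM, which is scaled for transcript length. Scd1 made up 1.75%, 2.80% and 2.35% of the summed FPKM of Scd1 and Scd2 in control samples 1 to 3, and 5.68%, 6.22% and 6.38% in NET samples. Scd2 thus remained the main transcript in every sample. The FPKM of Fads2 was 0.210, 0.218 and 0.179 of that of Fads1 in control samples and 0.776, 0.651 and 0.547 of it in NET samples. Of 6 such ratios compared, these and 3 others did not overlap between the groups. Each of these 5 gave a two-sided exact permutation p of 0.1, the smallest that 3 against 3 samples allow, or 0.12 after Benjamini-Hochberg adjustment over the 6. The Scd genes resemble each other, as do the Fads genes, so reads may have been split between them and their separate levels are uncertain.

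**Figure D2:**
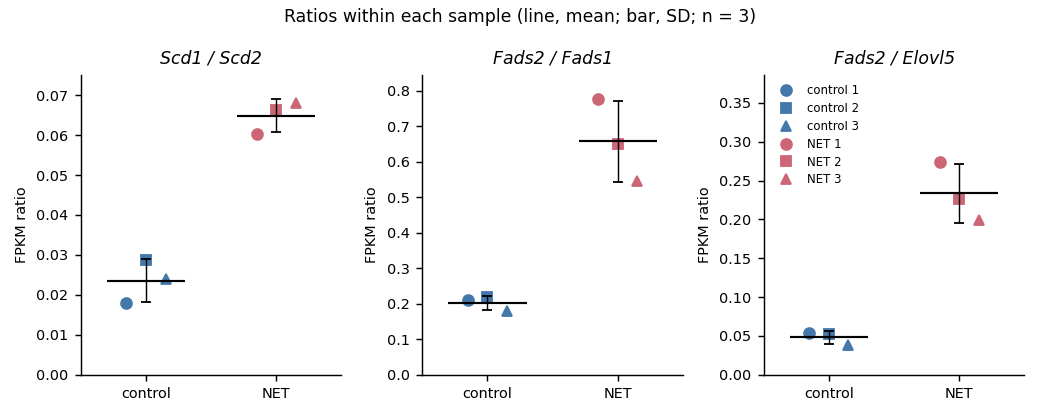
FPKM ratios (y axes, no unit) of Scd1 to Scd2, Fads2 to Fads1 and Fads2 to Elovl5 within each of the 6 samples, with the group mean (line) and SD (bar, n = 3). NET samples lie above control samples in each panel, at 0.547 to 0.776 against 0.179 to 0.218 for Fads2 to Fads1.

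The elongase members did not include a rise. NETs lowered 2 of the 3, where 22.3% of all genes tested were lower, and 1 of the 2 calls rested on single samples. On a companion list the genes of the elongation cycle split. Elovl7, another elongase, was lower (log2 fold change -2.14 ± 0.19). Hacd3 (0.09 ± 0.10), Tecr (0.23 ± 0.16) and Hacd4 (0.60 ± 0.29), named after their values were seen, did not pass the test. Further genes of the cycle on that list, named after their values were seen except Hsd17b12, were higher. They were Hsd17b12 (log2 fold change 0.78 ± 0.11), Elovl4 (1.23 ± 0.29, from 0.602 to 1.42 CPM), Hacd2 (0.50 ± 0.13) and Hacd1 (0.66 ± 0.22). The call of Hacd1 was lost when control sample 1 (0.69, adjusted p = 0.0548) or 3 (0.48, adjusted p = 0.126), NET sample 1 (0.48, adjusted p = 0.128) or both samples numbered 1 (0.51, adjusted p = 0.146) were left out. Elovl5, which extends the polyunsaturated products of Fads2 (NCBI gene 68801; mm10, chromosome 9, 77917365 to 77984519), had the second highest FPKM of the members in control cells. Its level was 171.7, 203.7 and 216.8 CPM in control and 107.7, 130.7 and 100.5 CPM in NET samples. Every NET sample was below every control sample, with a log2 fold change of -0.81 ± 0.12 (edgeR adjusted p = 0.000551). The FPKM ratio of Fads2 to Elovl5 went from 0.049 ± 0.008 to 0.234 ± 0.038 (SD, n = 3 each). Because Fads2 was higher and Elovl5 lower in every NET sample, this ratio could not overlap between the groups and is no separate result. Elovl6, which extends palmitate to stearate, fell from 64.5 ± 6.0 to 49.4 ± 7.4 CPM (log2 fold change -0.38 ± 0.12; edgeR adjusted p = 0.0278). Elovl6 no longer passed when control sample 2 (-0.35, adjusted p = 0.0926) or 3 (-0.33, adjusted p = 0.101) was left out. The same held when NET sample 1 (-0.28, adjusted p = 0.0877) or 3 (-0.37, adjusted p = 0.0715) was left out. Elovl1, which makes very long saturated chains, stood at 71.9 ± 2.9 and 68.8 ± 3.8 CPM and did not pass the test (log2 fold change -0.06 ± 0.09).

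Neither gene of palmitate synthesis passed the test. Fasn, the fatty acid synthase, was at 461.1, 369.8 and 361.8 CPM in control and 435.1, 437.6 and 536.5 CPM in NET samples. The groups overlapped because control sample 1 lay above 2 of the NET samples, and the log2 fold change was 0.24 ± 0.12 (edgeR adjusted p = 0.145). Without control sample 1 it was 0.36 (adjusted p = 0.0301), and without both samples numbered 1 it was 0.41 (adjusted p = 0.0164), past the test in each. Acaca, the acetyl-CoA carboxylase that commits carbon to fatty acids, had a log2 fold change of 0.07 ± 0.13.

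All 4 members for fatty acid activation and phospholipid remodelling were higher with NETs, where 22.3% of all genes tested were higher. The acyl-CoA synthetases couple free fatty acids to coenzyme A. Acsl5, a synthetase on a companion list named after its values were seen, was above each of these members in FPKM. It was at 133.4 ± 8.8 FPKM in control and 122.7 ± 9.3 FPKM in NET samples. It did not pass the test (log2 fold change -0.14 ± 0.10, edgeR adjusted p = 0.261). Acsl6, on the same list and far less abundant, was higher (3.57 ± 0.33). Acsl4, which prefers arachidonate and other polyunsaturated chains, was the most abundant of the 4 members per length (NCBI gene 50790; mm10, chromosome X, 142317993 to 142390802). It was at 137.5, 179.8 and 177.5 CPM in control and 230.6, 258.8 and 290.8 CPM in NET samples (log2 fold change 0.66 ± 0.13; edgeR adjusted p = 0.00217). The lowest NET sample was above the highest control sample. Acsl3, the form found on lipid droplets, had 7.44, 11.01 and 7.31 CPM in control and 14.7, 18.4 and 15.0 CPM in NET samples (log2 fold change 0.90 ± 0.18; edgeR adjusted p = 0.00245). In the annotation 9777 bases of Acsl3 overlap Utp14b, whose own log2 fold change was 0.23 and did not pass the test. Acsl1, prominent in liver, fat and macrophages, had 20.0, 16.8 and 17.3 CPM in control and 24.5, 29.4 and 28.4 CPM in NET samples (log2 fold change 0.61 ± 0.12; edgeR adjusted p = 0.00211). Here too the groups did not overlap. Lpcat3, which places polyunsaturated chains into phospholipids, rose from 47.8 ± 2.7 to 63.4 ± 4.1 CPM (log2 fold change 0.41 ± 0.09; edgeR adjusted p = 0.00517).

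**Figure D3:**
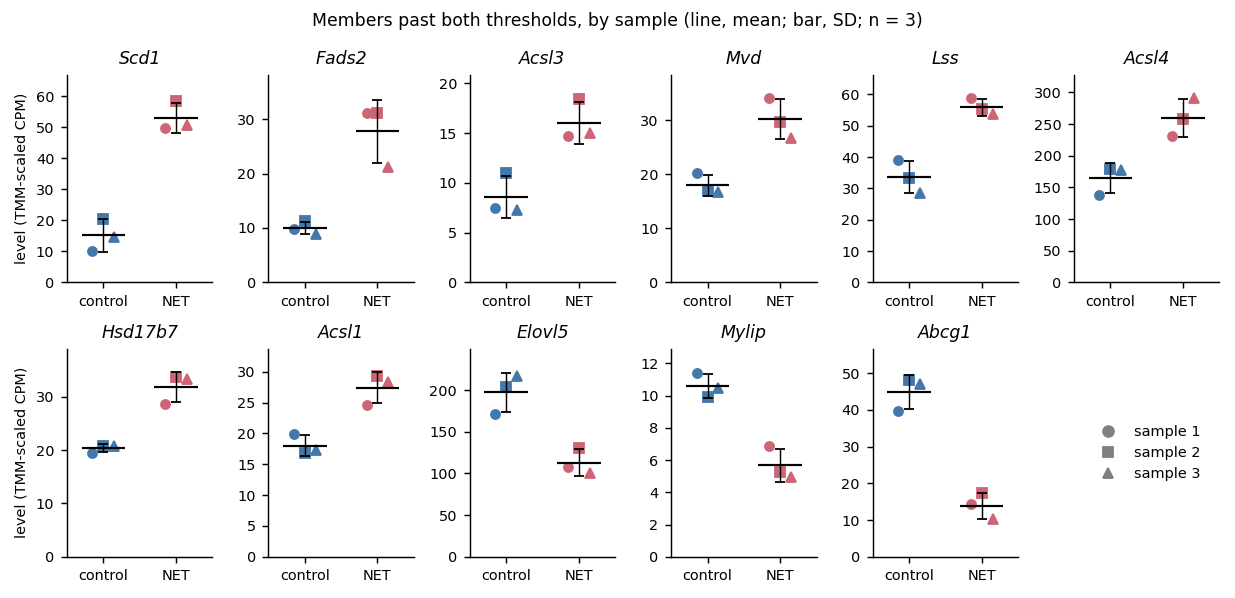
TMM-scaled CPM (y axes from 0) of the 11 members past both the adjusted p and the fold threshold, for control samples (blue) and NET samples (red) 1 to 3, with mean (line) and SD (bar, n = 3). In each of the 11 panels the groups do not overlap, as for Abcg1 with 39.6 to 48.03 CPM in control and 10.2 to 17.3 CPM in NET samples.

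In the mevalonate pathway 2 of 7 members were higher and 0 were lower, so 28.6% were called, against 44.6% of all genes tested. Mvd, which decarboxylates mevalonate pyrophosphate to isopentenyl pyrophosphate (NCBI gene 192156; mm10, chromosome 8, 122433596 to 122443422), was at 20.2, 17.0 and 16.7 CPM in control and 34.0, 29.7 and 26.7 CPM in NET samples. All NET samples were above all control samples (log2 fold change 0.75 ± 0.13; edgeR adjusted p = 0.000936). Fdps, the farnesyl pyrophosphate synthase at the branch to sterols and prenylated proteins, had the highest FPKM of the 7 over both groups, although Hmgcs1 was higher in control samples (52.6 against 44.2 FPKM). Its level was 56.4, 50.9 and 54.0 CPM in control and 88.7, 79.2 and 64.2 CPM in NET samples (log2 fold change 0.53 ± 0.12; edgeR adjusted p = 0.00542). NET sample 3 was the lowest of its group but above the control samples. Idi1, the isopentenyl pyrophosphate isomerase, did not pass the test although its groups did not overlap (log2 fold change 0.28 ± 0.12; edgeR adjusted p = 0.0822). The thiolase Acat2, the synthase Hmgcs1 and the kinases Mvk and Pmvk, which act before Mvd, had log2 fold changes between -0.12 and 0.01 and did not pass the test. Hmgcs1, whose promoter carried the sterol element core, was at 183.3 ± 24.0 CPM in control and 170.1 ± 19.6 CPM in NET samples.

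From squalene to sterol 4 of 11 members were higher and 1 was lower, so 45.5% were called, close to the share of all genes tested. Lss, the lanosterol synthase that closes the sterol rings (NCBI gene 16987; mm10, chromosome 10, 76531565 to 76557139), was at 39.0, 33.5 and 28.6 CPM in control and 58.8, 55.2 and 53.7 CPM in NET samples (log2 fold change 0.73 ± 0.12; edgeR adjusted p = 0.000723). Hsd17b7, a ketosteroid reductase of the demethylation complex, was at 19.6, 20.9 and 20.8 CPM in control and 28.7, 33.7 and 33.3 CPM in NET samples (log2 fold change 0.64 ± 0.10; edgeR adjusted p = 0.000731). Neither gene's groups overlapped. Msmo1, the oxidase that starts the removal of the methyl groups at carbon 4, rose from 45.8 ± 3.3 to 68.3 ± 5.4 CPM, and its log2 fold change of 0.578 lay just under the fold threshold. Sqle, the squalene epoxidase and a rate-limiting step of sterol synthesis, rose from 68.0 ± 4.3 to 91.9 ± 6.8 CPM (log2 fold change 0.43 ± 0.09; edgeR adjusted p = 0.00392).

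The other members of the group were lower or did not pass the test. Dhcr7, which converts 7-dehydrocholesterol to cholesterol, fell from 38.2 ± 0.5 to 29.4 ± 2.8 CPM (log2 fold change -0.38 ± 0.10; edgeR adjusted p = 0.0111). Ebp, a sterol isomerase that acts before it, had a log2 fold change of -0.22 ± 0.10 and did not pass the test (edgeR adjusted p = 0.103), but passed without control sample 1 (-0.28, adjusted p = 0.047) and without both samples numbered 1 (-0.31, adjusted p = 0.0356). Cyp51, the lanosterol demethylase gene and the highest of the group in FPKM over all samples, though below Msmo1 and Sqle in NET samples, was at 140.6, 153.2 and 152.9 CPM in control and 140.8, 153.0 and 138.0 CPM in NET samples. These values interleaved, with a log2 fold change of -0.05 ± 0.09. Nsdhl, which works with Msmo1 and Hsd17b7, had a log2 fold change of 0.31 ± 0.12 without overlap of the groups (edgeR adjusted p = 0.0617). The squalene synthase Fdft1, the sterol reductase Tm7sf2 and the desaturase Sc5d had log2 fold changes of 0.04, -0.0006 and 0.07 and did not pass the test. Over all 18 enzymes of sterol synthesis, 6 were higher and 1 was lower, with a median log2 fold change of 0.05. The share called was 38.9%, against 44.6% of all genes tested.

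**Figure D4:**
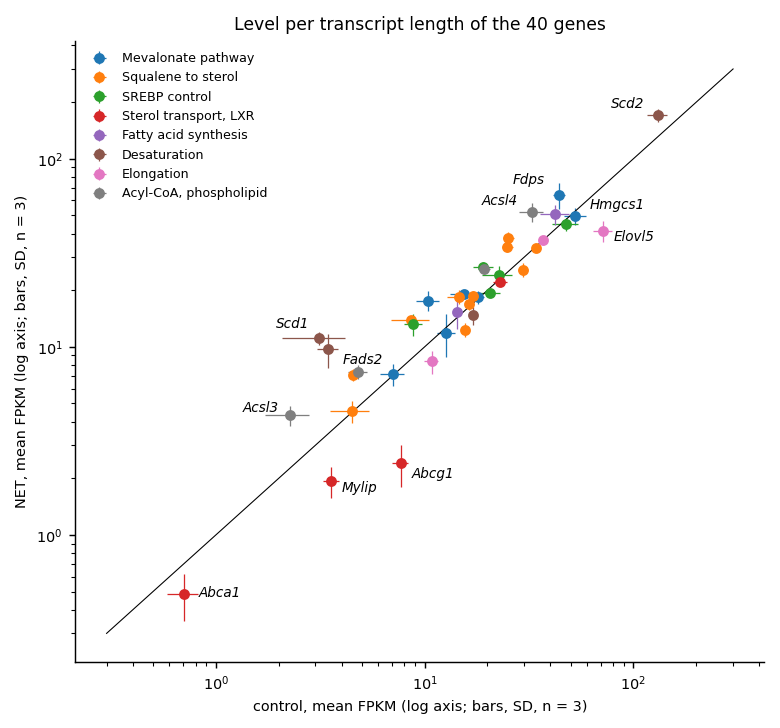
Mean FPKM of the 40 members in control (x axis) and NET samples (y axis), both on log axes with SD (n = 3), coloured by role; the line marks equal levels. Scd2 lies at the top right at 131 against 171 FPKM, Scd1 and Fads2 lie above the line, and Abcg1, Mylip and Elovl5 lie below it.

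Among the SREBP regulators the transcripts of the factors themselves did not pass the test. Srebf2, which chiefly drives sterol genes, was at 253.2, 203.4 and 205.5 CPM in control and 224.1, 193.4 and 201.7 CPM in NET samples (log2 fold change -0.10 ± 0.11). Srebf1, which chiefly drives fatty acid genes, was at 114.3, 88.5 and 90.1 CPM in control and 115.2, 100.7 and 91.3 CPM in NET samples (log2 fold change 0.07 ± 0.12). For both genes the groups overlapped and sample 1 was the highest of its group. Scap, the escort, was at 97.2, 81.5 and 80.4 CPM in control and 83.3, 77.3 and 78.5 CPM in NET samples (log2 fold change -0.12 ± 0.10). SREBP activity depends on cleavage of the protein, which transcript levels do not measure.

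Both Insig genes were higher. Insig1, itself a target of SREBP (NCBI gene 231070; mm10, chromosome 5, 28071412 to 28078662), was at 48.1, 56.9 and 46.0 CPM in control and 68.3, 73.95 and 65.6 CPM in NET samples (log2 fold change 0.46 ± 0.10; edgeR adjusted p = 0.00511). Insig2 was at 20.3, 23.8 and 24.8 CPM in control and 27.7, 36.6 and 33.0 CPM in NET samples (log2 fold change 0.50 ± 0.13; edgeR adjusted p = 0.01). In neither gene did the groups overlap. The FPKM ratio of Insig1 to Insig2 was 2.18 ± 0.33 in control and 2.05 ± 0.25 in NET samples (SD, n = 3 each), with overlapping values.

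The sterol transport group held the largest fall among the members. Abcg1, which exports cholesterol to high-density lipoprotein (NCBI gene 11307; mm10, chromosome 17, 31057694 to 31117984), was at 39.6, 48.03 and 47.1 CPM in control and 14.3, 17.3 and 10.2 CPM in NET samples. The groups lay far apart, 3.22-fold lower with NETs (log2 fold change -1.69 ± 0.17; edgeR adjusted p = 3.57e-05). Mylip, a ubiquitin ligase that LXR induces (NCBI gene 218203; mm10, chromosome 13, 45389742 to 45411940), was at 11.4, 9.92 and 10.5 CPM in control and 6.86, 5.27 and 4.94 CPM in NET samples. Its groups did not overlap either (log2 fold change -0.90 ± 0.16; edgeR adjusted p = 0.00122). Abca1, the exporter that loads lipid-poor apolipoprotein, was the least abundant member at 0.703 ± 0.117 and 0.487 ± 0.136 FPKM. Its log2 fold change of -0.54 ± 0.21 did not pass the test (edgeR adjusted p = 0.0645), but did when control sample 1 was left out (-0.69, adjusted p = 0.0258) and when NET sample 3 was (-0.78, adjusted p = 0.0166). Stard4, an intracellular sterol carrier and the most abundant of the group per length, was at 110.2, 131.1 and 127.0 CPM in control and 111.5, 118.4 and 118.3 CPM in NET samples (log2 fold change -0.08 ± 0.09). Among some of the genes that LXR can raise, Abcg1 and Mylip were lower, Abca1 did not pass the test, and Scd1 and Lpcat3 were higher. The members were not searched for all LXR targets, so these genes are not a full count. The activity of LXR was not tested.

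Other genes of lipid metabolism were counted on 7 companion lists that share no gene with the members. The share of genes called on a list ran from 38.5% for fatty acid oxidation to 61.9% for other fatty acid synthesis, against 44.6% of all genes tested. Of 11 other regulators of SREBP and LXR, 5 were higher (45.5%) and 0 were lower, against 22.3% in each direction over all genes tested. They included Mbtps2, a protease that cleaves SREBP (33.6 ± 3.7 to 53.7 ± 6.1 CPM), and Syvn1, a ubiquitin ligase of the endoplasmic reticulum (42.5 ± 5.0 to 68.0 ± 9.5 CPM). Lpin1 rose with a log2 fold change of 0.36, a call lost without control sample 3 (0.34, adjusted p = 0.0597). Of 8 other genes of sterol and isoprenoid synthesis, 3 were higher (37.5%) and 1 was lower (12.5%). Nus1, a subunit of the dehydrodolichyl diphosphate synthase, had a log2 fold change of 0.41 ± 0.09 (edgeR adjusted p = 0.00381). The calls of Ggps1 (higher, 0.27) and Dhdds (lower, -0.29), which make longer isoprenoids, were each lost without 4 or more of the 6 single libraries, with log2 fold changes then between 0.21 and 0.31 for Ggps1 and between -0.29 and -0.26 for Dhdds. Ggps1 also did not pass on the log2(FPKM + 1) and log2(FPKM + 0.1) scales (adjusted p = 0.0631 and 0.061).

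Sterol uptake, storage and efflux gave 7 higher and 4 lower of 19 genes (36.8% and 21.1%, against 22.3% in each direction over all genes tested). Lrp8, a receptor for apolipoprotein E and reelin, rose from 36.9 ± 6.0 to 100.4 ± 5.0 CPM, and Gpr183, a receptor for oxysterols, from 10.9 ± 2.0 to 27.1 ± 4.0 CPM. Npc2, the lysosomal cholesterol carrier, fell from 305.6 ± 39.7 to 164.2 ± 2.7 CPM, and Osbpl9, an oxysterol-binding protein relative, from 131.0 ± 17.6 to 80.9 ± 2.6 CPM. Of 21 other genes of fatty acid synthesis, 9 were higher (42.9%) and 4 were lower (19.0%). Me1, the malic enzyme that supplies NADPH, rose from 1.99 ± 0.23 to 22.6 ± 3.1 CPM (log2 fold change 3.51 ± 0.17; edgeR adjusted p = 2.88e-07). Acsl6, a further acyl-CoA synthetase, went from 0.267 ± 0.059 to 3.22 ± 0.78 CPM, and Hsd17b12, the reductase of the elongation cycle, from 95.9 ± 13.3 to 164.1 ± 10.0 CPM. Elovl7, an elongase of very long chains, fell from 7.49 ± 1.083 to 1.70 ± 0.28 CPM, while Elovl4 was higher as given above. Acacb, the mitochondrial acetyl-CoA carboxylase, fell from 8.39 ± 0.73 to 5.01 ± 0.94 CPM.

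Fatty acid oxidation gave 4 higher and 6 lower of 26 genes (23.1% lower, against 22.3% of all genes tested), with a median log2 fold change of -0.05. Cpt1a, the transferase that admits fatty acids to mitochondria, fell from 108.9 ± 4.7 to 61.0 ± 2.7 CPM (log2 fold change -0.84 ± 0.08; edgeR adjusted p = 3.38e-05), and the thiolase Acaa2 fell from 64.3 ± 7.5 to 41.3 ± 2.7 CPM. Cpt1c, a related transferase chiefly known from neurons, rose from 1.17 ± 0.31 to 3.12 ± 0.61 CPM. Pparg, a lipid-sensing nuclear receptor gene and not an oxidation enzyme, was counted among the 4 higher genes of this list. It was at 0.572, 0.542 and 0.641 CPM in control and 15.0, 12.5 and 17.2 CPM in NET samples, the largest rise of the companion genes (log2 fold change 4.65 ± 0.21; edgeR adjusted p = 2.16e-07). Triglyceride storage and fatty acid uptake gave 10 higher and 2 lower of 22 genes (45.5% and 9.09%, against 22.3% in each direction over all genes tested). The lipid droplet protein gene Hilpda rose from 12.2 ± 1.1 to 43.1 ± 6.7 CPM, and Cd36, a fatty acid carrier, from 2.27 ± 0.23 to 12.4 ± 2.6 CPM. Mgll, the monoglyceride lipase, rose from 0.655 ± 0.123 to 3.86 ± 0.34 CPM, and Lpl, the lipoprotein lipase, from 4.27 ± 0.50 to 12.8 ± 1.3 CPM. Lpin2, a phosphatidate phosphatase, and Pnpla2, the triglyceride lipase, fell with log2 fold changes of -0.45 ± 0.09 and -0.40 ± 0.09. Pparg, Cd36 and Lpl are also expressed by macrophages, and the part of such cells in these values was not tested. The summed macrophage markers were at 52.6 to 79.5 CPM in control and 90.9 to 105 CPM in NET samples, and 8 of 10 tested rose. Lyz2, the most abundant of them, did not pass the test (edgeR adjusted p = 0.552). C1qa, C1qb, C1qc and Mrc1 stayed at or below 0.53 CPM and were not tested. The single gene with values among 9 adipocyte and hepatocyte markers stayed at or below 0.464 CPM in every library.

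**Figure D5:**
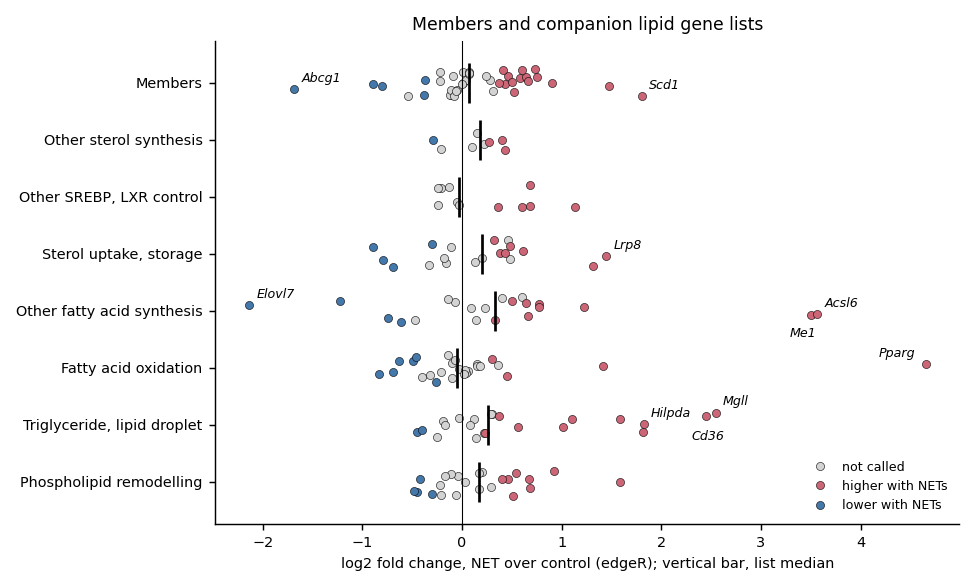
Log2 fold change (x axis, NET over control, edgeR) of the 40 members and of the genes tested on 7 companion lists (rows; vertical bars, medians), coloured by whether they passed an adjusted p of 0.05. The medians lie between -0.05 for fatty acid oxidation and 0.33 for other fatty acid synthesis, while single genes reach 4.65 (Pparg) and -2.14 (Elovl7).

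Phospholipid remodelling gave 8 higher and 4 lower of 23 genes (34.8% and 17.4%, against 22.3% in each direction over all genes tested). Lpcat2, an acyltransferase that makes platelet-activating factor, rose from 0.956 ± 0.140 to 2.88 ± 0.31 CPM. Pla2g4a, the phospholipase that frees arachidonate, rose from 3.27 ± 0.22 to 6.21 ± 0.50 CPM, and Pla2g6, a calcium-independent phospholipase, from 15.6 ± 2.4 to 24.99 ± 3.17 CPM. Crls1, the cardiolipin synthase, rose with a log2 fold change of 0.52 ± 0.10. Chkb, a choline kinase, and Lclat1, an acyltransferase that remodels cardiolipin, fell with log2 fold changes of -0.48 ± 0.10 and -0.46 ± 0.12, and the call of Lclat1 was lost without control sample 3 (-0.39, adjusted p = 0.0501).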

How the data were processed

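The members and all gene lists were chosen with earlier results of these data known. Poly(A) libraries marked for strand with dUTP were made from 3 NET and 3 control samples. The authors deposited estimated counts per gene, not scaled between libraries (31.6% were whole to 2 decimals), and FPKM values, which they scaled for transcript length and library size. The submitters' processing notes name mm10. How reads were aligned and counted, with which annotation and whether by strand, is not given in the sources used here, and reads of overlapping genes cannot be told apart without strand. Of 22064 genes listed, 6459 were blank in all samples and treated as missing. Library totals were 18696355 to 19425700 estimated counts. Replicates differed with a chi-square of 3.05 to 27.0 per degree of freedom, so no sample was taken as a repeat of another.

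Counts were rounded, filtered with filterByExpr and scaled by TMM in edgeR 4.0.16 (R 4.3.3). The quasi-likelihood F test compared the groups, with group as the only term, two-sided, with Benjamini-Hochberg adjustment over 12546 genes and a threshold of 0.05. The fold threshold was 0.58 on the log2 scale. Levels (mean ± SD) are in TMM-scaled CPM, and errors of fold changes are standard errors. The fit was tested on simulated data in which 200 genes were changed, far fewer than were called here. It recovered 23 of 50 genes changed 1.5-fold and 48 of 50 changed 2-fold, and called 13 unchanged genes. Changes near 1.5-fold were thus often missed. Values per sample are given for members past both thresholds, for Srebf1, Srebf2, Scap, Insig1 and Insig2, and for the member of highest FPKM in each role. From each companion list up to 4 genes of smallest adjusted p and up to 2 called against the majority were named, except some that are not reported here. Alternatives were scaling by upper quartile, library totals or relative log expression, filters (none, or at least 1 CPM in 3 libraries), a block for the replicate number, DESeq2 1.42.0, limma-voom (limma 3.58.1), limma on FPKM as log2(FPKM + 1) or log2(FPKM + 0.1), and fits without each library or without both numbered 1. Promoters and gene positions came from RefSeq tables of GRCm38.p6, which held 99.7% of the gene numbers. Protein sequences were not used here.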

Additional observations from a re-analysis of the deposited data

How the results depend on the processing

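Of the 20 called members, 18 kept their call under all 17 alternatives, the exceptions being Scd2 and Elovl6, whose values are given above. Of the others, 14 were called in none, and 6 (Idi1, Nsdhl, Ebp, Fasn, Abca1 and Fads1) passed in some. Nsdhl passed with upper quartile scaling, with library totals and on both FPKM scales (adjusted p = 0.0327 to 0.0468), and Idi1 with upper quartile scaling (adjusted p = 0.0423). Across the alternatives 14 to 17 members were higher and 4 to 7 lower, and past the fold threshold 6 to 10 and 3 to 4. Leaving out single libraries gave 2231 to 2901 higher and 2104 to 2893 lower genes in all. The cause of these changes was not tested. With the replicate number as a block, 17 members were higher and 7 lower, and 3484 and 3534 genes in all. The block added Idi1, Nsdhl, Abca1 and Fads1. The deviations of samples with the same number correlated at 0.43, 0.14 and 0.045, and not every sample correlated best with its own number, so the numbers were not taken to pair the samples.

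Signs changed for 10 members that passed no test under any alternative. Leaving out single libraries, the log2 fold change ranged from -0.0197 to 0.0812 for Acat2, from -0.0912 to 0.1048 for Mvk, from -0.3503 to 0.0001 for Pmvk, from -0.0109 to 0.0824 for Fdft1, from -0.1495 to 0.1104 for Tm7sf2, from -0.0058 to 0.1257 for Sc5d, from -0.0206 to 0.1944 for Srebf1, from -0.1556 to 0.0114 for Srebf2 and from -0.0759 to 0.1938 for Acaca. Without both libraries numbered 1 it was -0.0422 for Acat2, -0.0032 for Mvk, -0.0091 for Fdft1 and 0.0300 for Tm7sf2. Fads3, which also passed no test, ranged from -0.0257 to 0.6461 without single libraries. Elovl1 was at 0.0048 on the log2(FPKM + 1) scale and 0.0049 on the log2(FPKM + 0.1) scale. Tm7sf2, at -0.0006, became 0.0047 with relative log expression and with DESeq2, 0.0469 with upper quartile scaling, 0.0173 with library totals, 0.0137 with the filter at 1 CPM, 0.0120 with limma-voom, 0.0235 and 0.0307 on the 2 FPKM scales and 0.0061 with the replicate block.

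With 3 samples a group, log2 standard errors of the members were 0.09 to 0.21, so small changes could not be told from 0. The fold changes are relative to the mean RNA of each sample, and a change in total RNA per cell was not measured.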
